A study of Arabidopsis thaliana with 6 samples.

Results

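The 26S proteasome genes described here are 44 loci of *Arabidopsis thaliana*, out of 33602 genes in the deposited count table. They were chosen by locus from the known subunit list and not by any measured value. Earlier results of these data were known when the choice was made. They encode the 20S core particle (12 genes of the alpha subunits PAA to PAG and 11 of the beta subunits PBA to PBG) and much of the regulatory particle (10 genes of the ATPases RPT1 to RPT6 and 11 RPN genes). All 44 loci were in the table and all passed the filter on low counts. The high light group was 3 libraries of *cat2-2* leaves taken after 3 h at 1200 µmol m-2 s-1 light, 400 ppm CO2 and 55% relative humidity. The high CO2 group was 3 libraries of *cat2-2* leaves taken at 0 h, at 120 µmol m-2 s-1 light, 3000 ppm CO2 and 75% relative humidity. Both groups carry the *cat2-2* mutation of CATALASE 2 in the Columbia-0 background, were 3 weeks old, had 16 h days at 21 °C, and each library pooled middle-aged leaves of 15 plants. The leaves moved to high light changed in light, CO2, humidity, growth chamber and hour of sampling together, and wild-type plants were not analysed here, so the effects of these factors and of the mutation cannot be told apart.

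The 26S proteasome degrades proteins that carry ubiquitin chains. Its barrel-shaped core holds the proteolytic sites on beta subunits inside a chamber closed by the alpha rings, and the regulatory particle binds ubiquitin, removes it, unfolds the substrate with the RPT ATPases and feeds it into the core. Arabidopsis keeps a pair of genes for many subunits. In Arabidopsis the transcription factors NAC53 and NAC78 are known to raise proteasome genes together when proteasome capacity is short, and they are known to bind an element with the core TGGGC.

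Library totals ranged from 18047295 to 24149149 counts, and 18504 genes holding 99.95% of the counts were tested. *CAT2* had 39.96 ± 5.66 CPM in high light and 94.1 ± 12.6 CPM in high CO2 (CPM, counts scaled to a common library size, SD, n = 3 each), which does not check the mutation, since there is no wild type beside it. Mesophyll marker genes, 4 in all, summed to 21710.0 to 31400.0 CPM in high light and 48360.0 to 70050.0 CPM in high CO2, vascular markers to 156 to 199 CPM in high light and 238 to 254 CPM in high CO2, and epidermis markers to 148 to 195 CPM in high light and 325 to 344 CPM in high CO2. Guard cell markers summed to 47.2 to 62.7 CPM in high light and 52.2 to 55.9 CPM in high CO2. These sums covered changes in both directions, by the test described below. Of the 5 guard cell genes, *KAT1* rose, with a log2 fold change of 0.63 (high light over high CO2). *MYB60* and *FAMA* fell, with log2 fold changes of -1.48 and -0.82, and 2 were not called. Root, flower and dividing-cell markers summed to at most 5.27 CPM in a high light library and 8.84 CPM in a high CO2 library, and 2 of the 4 root markers and 1 of the 4 dividing-cell markers had no count in any library. Every mesophyll marker fell, and the other leaf lists held low genes too, such as *HT1* at 2.25 to 3.47 CPM. Within each library *HT1* was below the dividing-cell marker *KNOLLE*, which had 3.45 to 7.56 CPM. In bulk leaf RNA, fewer cells of a type and less RNA per cell cannot be told apart, and the part of these marker differences in the results below was not tested.

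Proteasome transcripts were higher after high light in all 4 groups of subunits. Together the 44 genes took 0.578%, 0.618% and 0.646% of all counts in the high light libraries, and 0.288%, 0.301% and 0.352% in the high CO2 libraries. The group means were 0.614 ± 0.0341% in high light and 0.314 ± 0.0338% in high CO2 (SD, n = 3 each), and the libraries of the groups did not overlap. In edgeR's quasi-likelihood fit of all tested genes, adjusted by the Benjamini-Hochberg method, 38 of the 44 genes rose, 0 fell and 6 were not called. Over all tested genes, 30.4% rose and 30.4% fell at the same threshold, an adjusted p under 0.05. In 40 of the 44 genes every high light library lay above every high CO2 library, which held for 33.3% of all tested genes, and in 0 of the 44 did every high light library lie below, against 33.9% of all tested genes. In level of expression all 44 genes lay above the median of all tested genes, a log2 CPM of 3.85. The shares among genes of like level were not measured.

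The rises were moderate in size and shared by the 4 groups of subunits. The median log2 fold change of the 44 genes was 0.75, a 1.68-fold rise, against a median of -0.06 over all tested genes. Rises of at least 2-fold were called in 12 of the 44 genes, against 19.1% of all tested genes. All 44 values lay above the median of all genes, and 24 lay above its upper quartile of 0.69, while 1229 genes of the whole table had a larger log2 fold change than the top proteasome gene. The alpha subunits had 9 of 12 genes risen with a median log2 fold change of 0.64, and the beta subunits had 10 of 11 risen with a median of 0.74. The RPT ATPases had 9 of 10 risen with a median of 0.75, and the RPN subunits had 10 of 11 risen with a median of 0.81. The differences between these 4 medians were not tested.

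**Figure D1:**
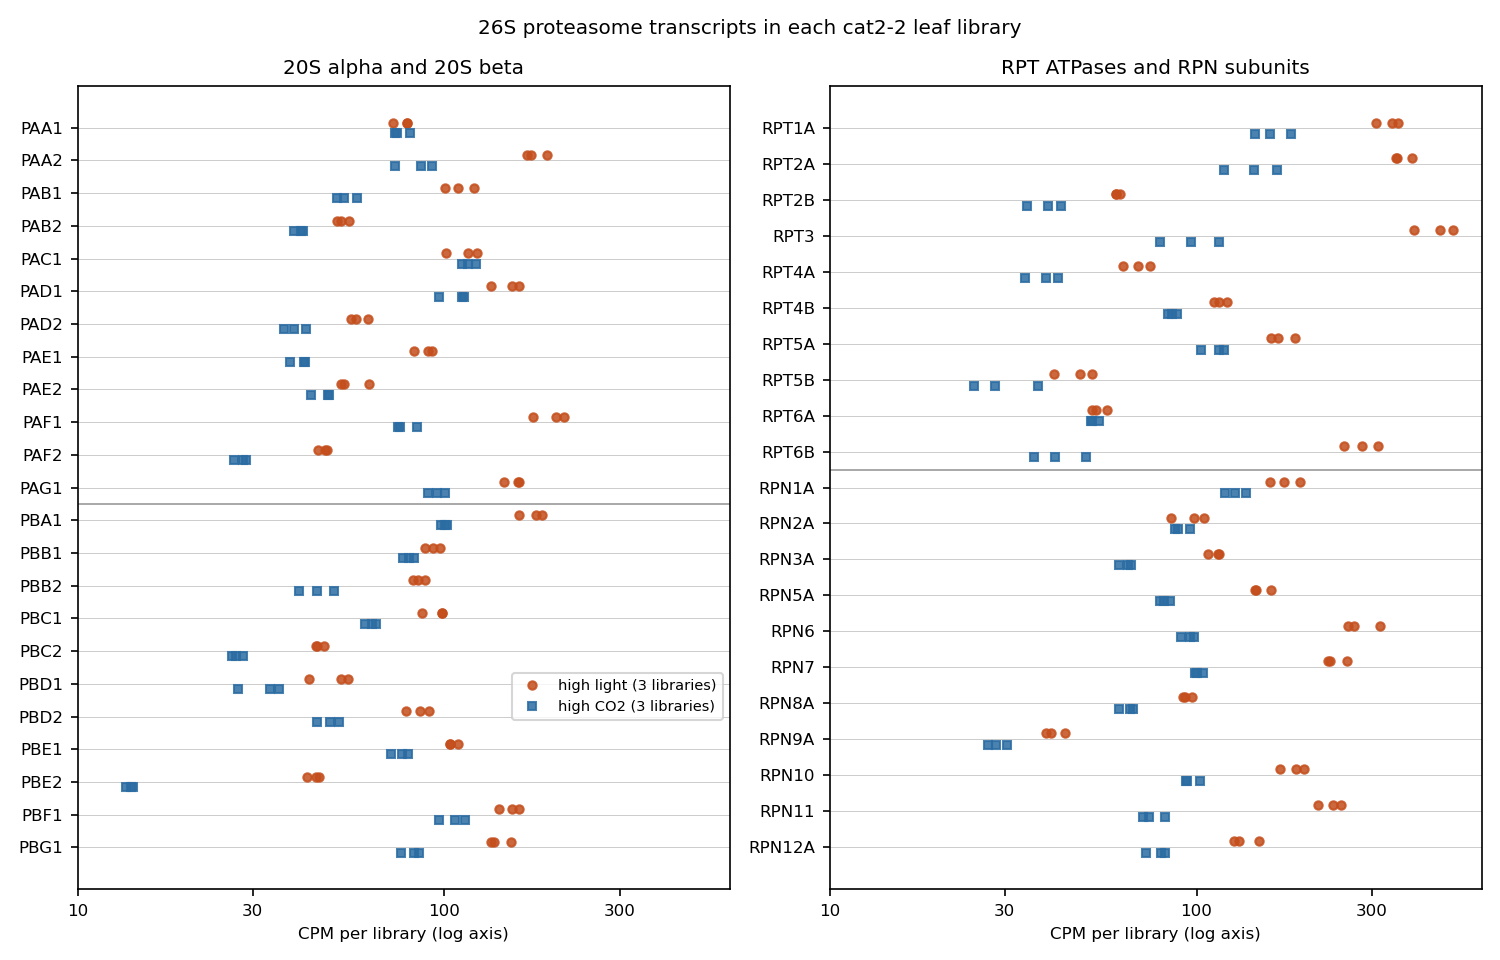
CPM of each of the 44 proteasome genes in each library on a log axis, with 3 high light libraries as circles and 3 high CO2 libraries as squares. The circles lie to the right of all squares in 40 of the 44 genes, and RPT6B and RPT3 are the most widely separated.

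In the alpha rings, which form the gate of the core, the largest rise was that of *PAF1* (AT5G42790). *PAF1* had 201, 175 and 212 CPM in high light, against 75.8, 84.1 and 74.6 CPM in high CO2, a log2 fold change of 1.32 ± 0.14 (SE, adjusted p = 5.41e-05). *PAE1* (AT1G53850) had 90.4, 82.5 and 92.6 CPM in high light, against 37.9, 41.7 and 41.3 CPM in high CO2 (log2 fold change 1.13 ± 0.12, adjusted p = 5.55e-05). In both genes the lowest high light library lay above the highest high CO2 library by more than the range within either group. *PAA2* (AT2G05840) had 168, 172 and 190.0 CPM in high light, against 73.2, 86.3 and 92.7 CPM in high CO2 (log2 fold change 1.07 ± 0.14, adjusted p = 0.000221). *PAB1* was the only other alpha gene that rose at least 2-fold, with a log2 fold change of 1.03, and *PAF2*, *PAG1*, *PAD2*, *PAD1* and *PAB2* rose by 0.75, 0.70, 0.57, 0.47 and 0.39 on the same scale.

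The 3 alpha genes that were not called had overlapping or nearly touching groups. *PAA1* (AT5G35590), the paralogue of *PAA2*, had 78.9, 72.5 and 78.8 CPM in high light, against 74.4, 80.8 and 73.3 CPM in high CO2 (log2 fold change 0.01 ± 0.11, adjusted p = 0.943). *PAC1* (AT3G22110), the only gene here for its subunit, had 123, 101 and 116 CPM in high light, against 112, 122 and 116 CPM in high CO2 (log2 fold change -0.04 ± 0.13, adjusted p = 0.781). *PAE2* (AT3G14290), the paralogue of *PAE1*, had 62.3, 53.4 and 52.2 CPM in high light, against 48.1, 43.2 and 48.6 CPM in high CO2 (log2 fold change 0.26 ± 0.12, adjusted p = 0.0948). The *PAE2* libraries did not overlap, and the interval between the groups was narrower than their spread within high light.

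Among the beta subunits, which include the proteolytic ones, *PBE2* (AT3G26340) stood apart from the others. It encodes a form of the subunit with chymotrypsin-like activity. *PBE2* had 45.4, 42.2 and 44.7 CPM in high light, against 13.6, 14.0 and 14.1 CPM in high CO2, a log2 fold change of 1.67 ± 0.11 (adjusted p = 4.3e-06). Both groups were tight, and it was the lowest of the 44 genes in high CO2 by CPM. *PBB2* (AT5G40580), for the subunit with trypsin-like activity, had 84.5, 82.0 and 88.7 CPM in high light, against 40.2, 44.9 and 50.1 CPM in high CO2 (log2 fold change 0.92 ± 0.13, adjusted p = 0.000298). *PBD2* (AT4G14800) had 86.0, 78.5 and 90.9 CPM in high light, against 45.0, 51.5 and 48.9 CPM in high CO2 (log2 fold change 0.81 ± 0.12, adjusted p = 0.000478). *PBA1*, for the caspase-like subunit, rose by 0.80, and *PBG1*, *PBC2*, *PBD1*, *PBC1*, *PBF1* and *PBE1* rose by 0.79, 0.74, 0.64, 0.58, 0.51 and 0.47 on the log2 scale. *PBB1* (AT3G27430), the paralogue of *PBB2*, was the only beta gene not called, with 93.3, 88.3 and 97.4 CPM in high light, against 82.5, 80.3 and 77.0 CPM in high CO2 (log2 fold change 0.22 ± 0.11, adjusted p = 0.128).

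The largest changes of the complex were in the ATPase ring. *RPT6B* (AT5G20000) had 253, 282 and 311 CPM in high light, against 36.2, 41.2 and 49.9 CPM in high CO2. That was 6.66-fold higher, a log2 fold change of 2.73 ± 0.17 (adjusted p = 3.01e-06), and the lowest high light library was far above the highest high CO2 library. *RPT3* (AT5G58290), which has no paralogue among these genes, had 392, 462 and 501 CPM in high light, against 79.3, 96.8 and 115 CPM in high CO2 (log2 fold change 2.22 ± 0.18, adjusted p = 1.57e-05). *RPT2A* (AT4G29040), for an ATPase known to help open the core gate, had 351, 349 and 388 CPM in high light, against 119, 143 and 166 CPM in high CO2 (log2 fold change 1.35 ± 0.16, adjusted p = 0.000127). *RPT1A* rose by 1.05, and *RPT4A*, *RPT5B*, *RPT2B*, *RPT5A* and *RPT4B* rose by 0.85, 0.65, 0.65, 0.60 and 0.43 on the log2 scale. *RPT6A* (AT5G19990), the paralogue of *RPT6B*, was the only RPT gene not called, with 51.8, 53.1 and 56.9 CPM in high light, against 52.0, 51.7 and 54.4 CPM in high CO2 (log2 fold change 0.03 ± 0.11, adjusted p = 0.803).

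The RPN subunits make up the rest of the regulatory particle. *RPN11* (AT5G23540), the enzyme that cuts ubiquitin chains off substrates as they enter, had 236, 215 and 248 CPM in high light, against 71.3, 74.0 and 81.9 CPM in high CO2 (log2 fold change 1.62 ± 0.13, adjusted p = 1.51e-05). *RPN6* (AT1G29150), a lid subunit that braces the regulatory particle against the core, had 268, 260 and 317 CPM in high light, against 90.6, 98.1 and 95.7 CPM in high CO2 (log2 fold change 1.57 ± 0.14, adjusted p = 2.24e-05). *RPN7* (AT4G24820), another lid subunit, had 229, 232 and 258 CPM in high light, against 100.4, 99.2 and 104 CPM in high CO2 (log2 fold change 1.24 ± 0.13, adjusted p = 5.14e-05). In all 3 the high light libraries lay far above the high CO2 libraries, with no overlap. *RPN10*, a ubiquitin receptor, rose by 0.93, *RPN5A*, *RPN3A*, *RPN12A*, *RPN8A* and *RPN9A* of the lid rose by 0.87, 0.81, 0.79, 0.54 and 0.52, and *RPN1A*, a scaffold at the base, rose by 0.45 on the log2 scale. *RPN2A* (AT2G32730), the other large base scaffold, was not called, with 85.1, 98.4 and 105 CPM in high light, against 88.8, 87.3 and 95.7 CPM in high CO2 (log2 fold change 0.09 ± 0.13, adjusted p = 0.579).

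**Figure D2:**
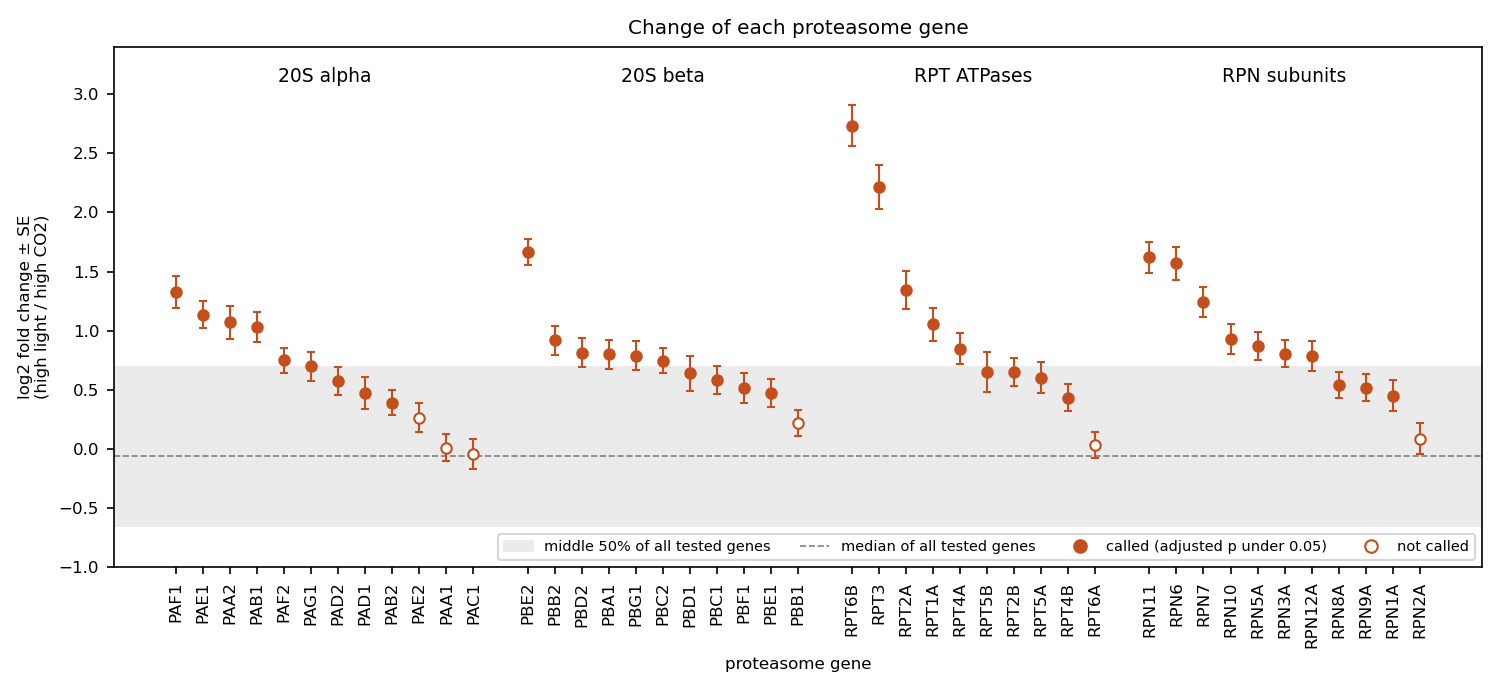
Log2 fold change (high light over high CO2, ± SE from the fit of 3 libraries each) of each proteasome gene, sorted within its group of subunits. The dashed line is the median of all tested genes at -0.06, the grey band runs from their lower quartile of -0.65 to their upper quartile of 0.69, filled points were called and the 6 open points were not.

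Within many subunits the paralogues had different log2 fold changes. Of 13 gene pairs, both genes rose in 9 and one was not called in 4, and the genes of a pair differed by a median of 0.64 in log2 fold change. The share of each pair's transcripts, per exon length, that came from its first gene did not overlap between the groups in 10 pairs. Exact two-sided permutation tests of the log2 count ratio gave p = 0.1 for each of these 10, the smallest p that 3 against 3 libraries allow, and 0.13 after Benjamini-Hochberg adjustment over the 13 pairs. With 3 libraries a group this exact test cannot reach 0.05 for a single pair. How often the shares of other gene pairs separate the groups was not measured, so the 10 cannot be called a trait of proteasome pairs. Of single tested genes, 33.3% had every high light library above every high CO2 library, and 33.9% had every one below.

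The pair RPT6 was the most altered. *RPT6A* made up 13.1%, 12.2% and 11.9% of it in the high light libraries, against 51.5%, 48.1% and 44.6% in the high CO2 libraries, so that *RPT6B* made up a mean of 87.6% in high light and 51.95% in high CO2. *PBE1* made up 66.4 ± 0.929% of its pair in high light and 81.9 ± 0.503% in high CO2 (SD, n = 3 each), and *PBE2* made up the rest. *PAA1* made up 36.0 ± 1.53% in high light and 54.1 ± 3.17% in high CO2. In these 3 pairs the log2 fold changes of the paralogues differed by more than 1. *PAE1* had a larger share of its pair in high light, with 57.6 ± 2.50% in high light and 42.6 ± 2.51% in high CO2, and *PBB1* had a smaller one, with 52.9 ± 0.331% in high light and 64.6 ± 3.28% in high CO2. *PAB1*, *PAF1*, *RPT2A* and *RPT4A* had mean shares of 64.7%, 80.6%, 86.6% and 37.7% in high light, against 54.2%, 73.6%, 79.7% and 31.2% in high CO2. *PBC1* differed least among the pairs without overlap, with 69.3% in high light and 71.7% in high CO2. The shares of *PAD1*, *PBD1* and *RPT5A* overlapped between the groups, with exact p of 0.5, 0.3 and 0.6.

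**Figure D3:**
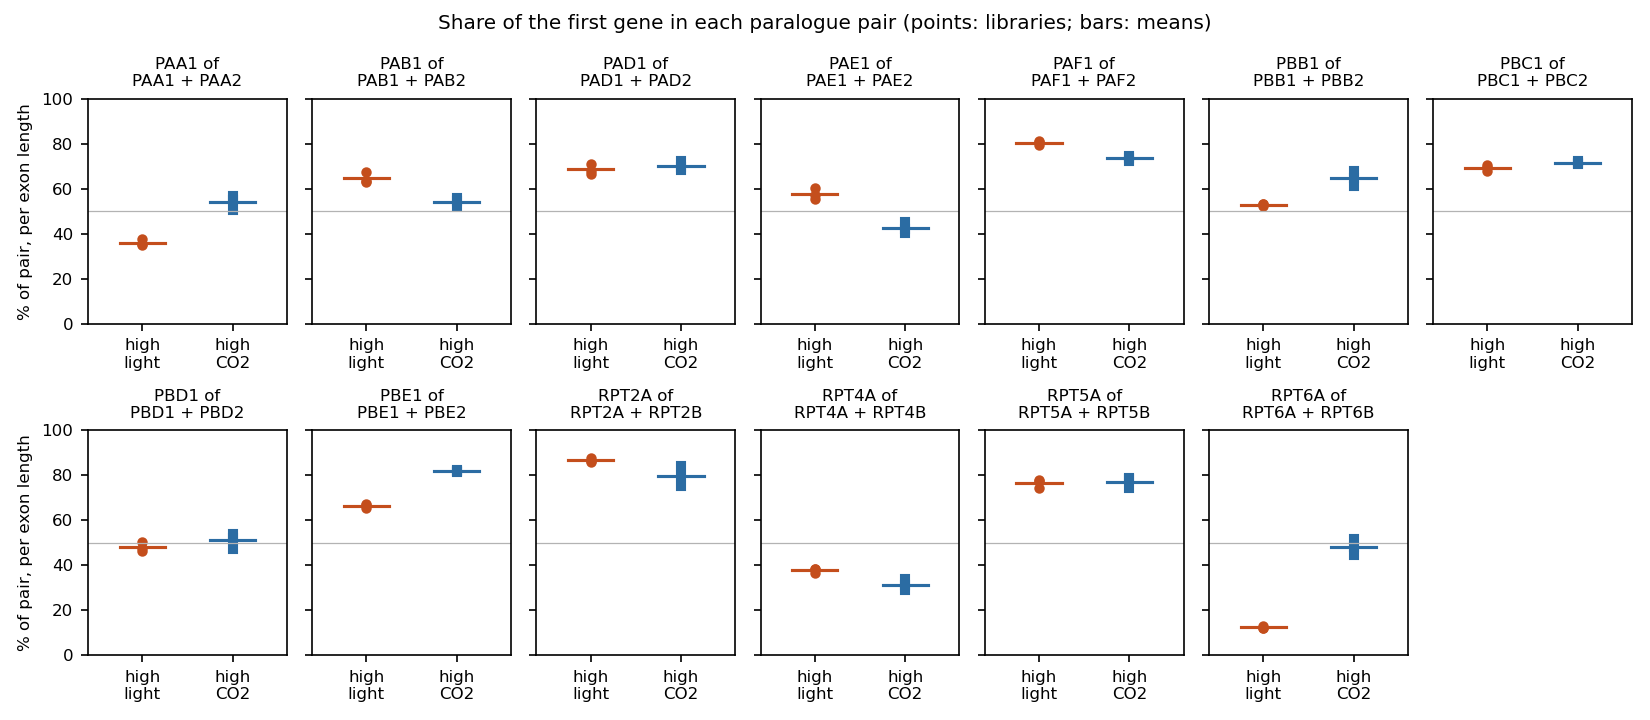
Share of the first gene in each of 13 paralogue pairs, in percent of the pair's CPM per kb of exon, for the 3 libraries of each group (points) with the group mean (bar). RPT6A has a mean of 12.4% in high light and 48.1% in high CO2, while the PAD, PBD and RPT5 pairs overlap.

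*RPT6A* and *RPT6B* lie next to each other on chromosome 5, on the same strand and 1317 bases apart, and their coding sequences are 94.4% identical, the closest of the pairs, which range from 78.8% upwards. How reads matching both genes were counted is not given in the sources used here, so some reads may have been split or dropped. The bases just before each start are given because these neighbours differed most in response, and *PBE1* and *PBE2* because their response differed most among the core pairs. *RPT3* is added as the largest rise without a paralogue. Each sequence is the 250 bases before the gene start in the RefSeq annotation of TAIR10.1, 5′ to 3′ on the gene's strand, and capitals mark TGGGC or, for a copy on the opposite strand, GCCCA.
RPT6B, chr5:6756383-6756632, plus strand: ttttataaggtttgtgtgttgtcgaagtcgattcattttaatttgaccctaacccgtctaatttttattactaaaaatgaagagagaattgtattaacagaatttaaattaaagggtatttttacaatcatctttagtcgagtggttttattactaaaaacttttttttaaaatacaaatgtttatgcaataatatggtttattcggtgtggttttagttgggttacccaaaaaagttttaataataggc
RPT6A, chr5:6751548-6751797, plus strand: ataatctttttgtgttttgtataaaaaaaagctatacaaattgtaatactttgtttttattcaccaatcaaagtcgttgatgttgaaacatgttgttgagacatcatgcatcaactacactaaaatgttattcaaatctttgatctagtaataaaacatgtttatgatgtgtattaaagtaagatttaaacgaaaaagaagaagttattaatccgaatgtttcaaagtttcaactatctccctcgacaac
RPT3, chr5:23568802-23569051, plus strand: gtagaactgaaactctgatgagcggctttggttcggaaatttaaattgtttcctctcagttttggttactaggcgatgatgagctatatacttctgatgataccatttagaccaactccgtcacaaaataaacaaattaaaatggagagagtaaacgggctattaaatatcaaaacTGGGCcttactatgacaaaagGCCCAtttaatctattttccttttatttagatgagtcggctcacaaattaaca
PBE2, chr3:9652937-9653186, minus strand: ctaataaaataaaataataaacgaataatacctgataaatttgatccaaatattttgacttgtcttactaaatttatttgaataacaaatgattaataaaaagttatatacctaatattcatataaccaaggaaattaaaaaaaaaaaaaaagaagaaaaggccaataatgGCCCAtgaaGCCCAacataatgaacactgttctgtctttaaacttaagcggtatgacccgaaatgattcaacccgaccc
PBE1, chr1:4451940-4452189, plus strand: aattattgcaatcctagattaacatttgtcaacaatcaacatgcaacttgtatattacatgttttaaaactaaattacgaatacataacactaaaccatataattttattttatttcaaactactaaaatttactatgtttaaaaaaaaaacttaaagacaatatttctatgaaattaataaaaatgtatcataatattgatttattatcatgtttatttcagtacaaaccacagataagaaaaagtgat
*RPT3* held 2 copies in this window and *PBE2* held 2, while *RPT6B*, *RPT6A* and *PBE1* held none. With the first 50 bases of the gene added, *PBE2* held 4 copies and *PBE1* held 3, so the pair differed little in that longer window, and the other 3 genes held the same number as before.

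The motif was counted in the same way before every gene. Searched on both strands, TGGGC stood in the 250 bases before the start in 19 of the 44 proteasome genes (43.2%), against 26.4% of the tested protein-coding genes and 22.9% of the 26711 protein-coding genes of the table. With the first 50 bases of the gene added, 25 of 44 (56.8%) held it, against 26.2% of all protein-coding genes and 30.4% of those tested. The longer letters TGGGCC, a site II element known from promoters of many growth-related genes, contain TGGGC and stood in the 250 bases of 14 proteasome genes (31.8%), against 17.3% of those tested and 13.9% of all. Genes with and without the motif rose alike in direction. Of the 19 genes with TGGGC in the 250 bases, 17 rose and the median log2 fold change was 0.79, and of the 25 without it, 21 rose and the median was 0.70. Among the 12 genes with the largest rises 6 held it. *RPN11*, *RPN7* and *PAA2* had no copy in either window, and *RPT2A* had 3 in the 250 bases. A match of these letters is a description of sequence, and no match says only that they are not in the window.

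Summed over the listed genes of each subunit and divided by exon length, 29 of the 31 subunits had every high light library above every high CO2 library. Of single tested genes, 33.3% did so. The core subunits were more even than those of the regulatory particle. The summed level of the core subunits varied 2.11-fold between the lowest and the highest in high light and 1.95-fold in high CO2. The core median was 127 CPM per kb in high light and 84.7 CPM per kb in high CO2. Over the listed genes the regulatory particle was uneven, with an 11.8-fold range in high light and a 7.18-fold range in high CO2. These sums leave out further genes of several of its subunits, given below. With them the range was 4.22-fold in high light and 3.17-fold in high CO2. The ratio of high light to high CO2 had a median of 1.71 over the 31 subunits. It was lowest for PAC, at 92.3 ± 9.09 CPM per kb in high light and 95.2 ± 4.05 CPM per kb in high CO2, and highest for RPT3, at 218 ± 26.6 CPM per kb in high light and 46.96 ± 8.71 CPM per kb in high CO2. RPT6 came next, with 179.7 ± 17.4 CPM per kb in high light and 45.4 ± 4.43 CPM per kb in high CO2. RPT2 had the highest level per length in high light, at 256 ± 12.98 CPM per kb, against 109 ± 12.1 CPM per kb in high CO2.

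**Figure D4:**
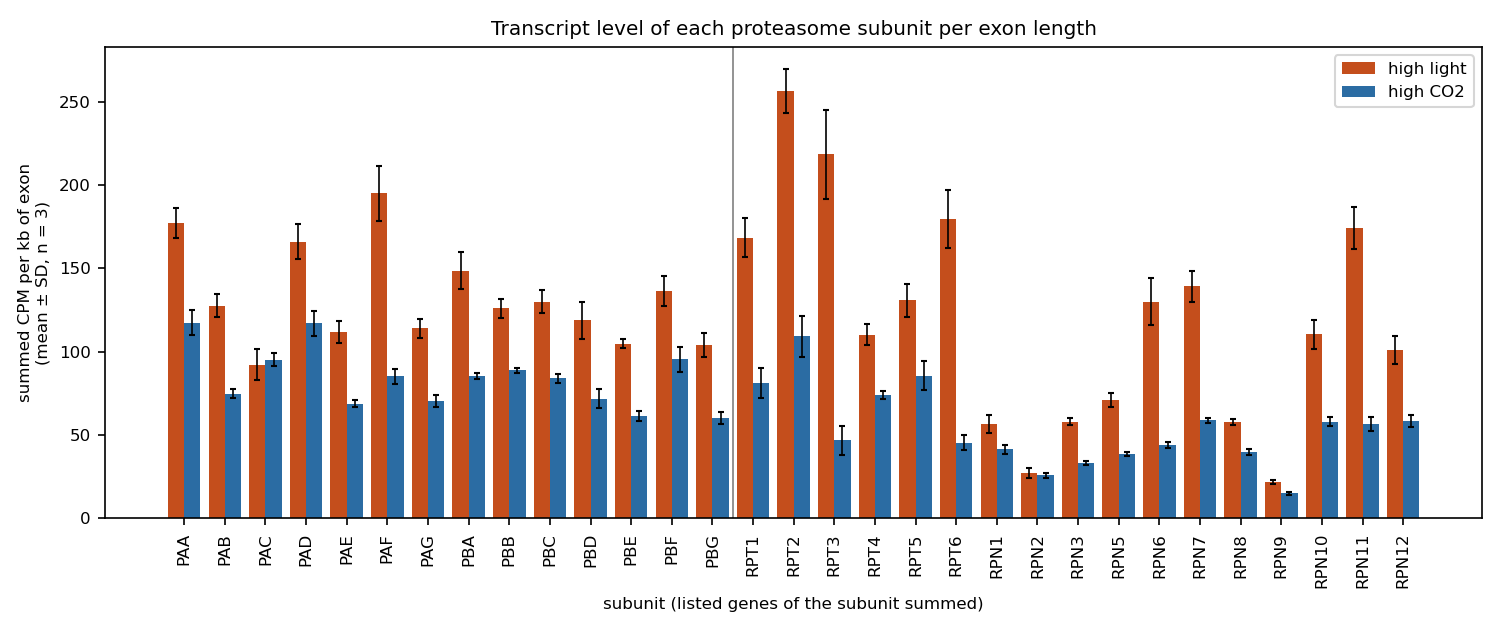
Summed CPM per kb of exon for each of the 31 subunits (listed genes only, mean ± SD of 3 libraries), high light left and high CO2 right of each pair of bars, with the 20S core left of the vertical line. The core bars span a 2.11-fold range in high light and a 1.95-fold range in high CO2. RPT3, RPT6 and RPN11 are far taller in high light than in high CO2, and PAC does not differ beyond its spread.

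Several regulatory subunits have further genes outside the 44. Of 11 such genes, which include *RPN13* and the *DSS1* genes, 8 rose (72.7%), 1 fell and 2 were not called. Over all tested genes, 30.4% rose and 30.4% fell. *RPN9B* had 93.0, 103 and 106 CPM in high light, against 30.8, 26.6 and 37.3 CPM in high CO2 (log2 fold change 1.68 ± 0.15, adjusted p = 2.66e-05), and it made up 73.8% of the RPN9 pair per length in high light and 55.6% in high CO2. *RPN8B* rose by 1.58 on the log2 scale. *RPN2B*, the paralogue of the uncalled *RPN2A*, had 105, 117 and 122 CPM in high light, against 47.5, 45.8 and 48.2 CPM in high CO2, a log2 fold change of 1.28 ± 0.12 (adjusted p = 3.09e-05), and its share of the pair was 55.0% in high light and 34.8% in high CO2. *RPN12B* fell by 0.92 on the log2 scale, with 0.602 CPM in high light and 1.15 CPM in high CO2, a weak call that was lost with DESeq2, without replicate 3 of both groups and with most single libraries left out. With these genes added, 30 of 31 subunits had every high light library above every high CO2 library, against 33.3% of single tested genes. The range of the regulatory particle narrowed to 4.22-fold in high light and 3.17-fold in high CO2. Of the 6 uncalled genes among the 44, all but *PAC1* thus have a listed paralogue that rose. The closest coding copy of *PAC1*, AT4G15165, is 84.1% identical over 45% of the *PAC1* coding length. It is in none of the lists, and its value is not given.

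The libraries of a group were close to each other. The coefficient of variation of the 44 genes had a median of 6.82% in high light, from 1.73% for *RPT2B* to 12.5% for *PBD1*, and a median of 5.89% in high CO2, from 1.88% for *PBA1* to 21.0% for *RPT5B*. High light replicate 3 was the highest of its group for 31 of the 44 genes. High light replicate 1 was the lowest for 9 of the 10 RPT genes, whereas high light replicate 2 was the lowest for 8 of 12 alpha and 9 of 11 beta genes. High CO2 replicate 1 was the lowest of its group for 26 of the 44. How often each library was the highest or lowest over all tested genes was not measured, so these counts cannot be called a trait of proteasome genes. With replicate 3 left out of both groups, 39 of the 44 genes rose and 0 fell. Of all tested genes 5807 rose and 4869 fell in that run.

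Genes that act on the proteasome from outside also changed. *NAC53* (AT3G10500) had 110.3, 115 and 149 CPM in high light, against 5.96, 8.09 and 9.69 CPM in high CO2, a 15.8-fold rise (log2 fold change 3.98 ± 0.22, adjusted p = 1.47e-06). *NAC78* (AT5G04410) had 229, 252 and 248 CPM in high light, against 49.2, 51.4 and 59.1 CPM in high CO2 (log2 fold change 2.19 ± 0.14, adjusted p = 3.04e-06). *NAC53* exceeded every proteasome gene in log2 fold change, and *NAC78* exceeded all but *RPT6B* and *RPT3*. Of 5 tested assembly and activator genes 4 rose (80.0%, against 30.4% of all tested genes) and 0 fell, but only 1 rose with upper-quartile factors. *PA200*, a cap that can bind the core in place of the regulatory particle, had 371, 457 and 541 CPM in high light, against 61.6, 66.3 and 101 CPM in high CO2 (log2 fold change 2.58 ± 0.24, adjusted p = 2.74e-05), and the chaperone gene *PBAC2* rose by 0.51 on the log2 scale. *UMP1B* is listed at 0 in all libraries and shares 93.4% of its exon bases with another gene on the same strand, so it was not tested. AT2G03430, AT3G15180 and AT2G26780 had been candidates for this list and were left out after their counts were seen, because RefSeq does not annotate them as proteasome genes. Their log2 fold changes were 0.99 (called), 0.77 (called) and 0.33 (not called), and with them 6 of 8 tested genes rose and 0 fell.

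Ubiquitin and E1 genes were called mostly as risen, whereas the share of CDC48 genes called as risen was near that of all tested genes. Of 7 ubiquitin and E1 genes 6 rose (85.7%, against 30.4% of all tested genes) and 0 fell. *UBQ3* had 1323, 1408 and 1516 CPM in high light, against 204, 241 and 272 CPM in high CO2 (log2 fold change 2.57 ± 0.17, adjusted p = 3.65e-06), and *UBQ14* had a log2 fold change of 2.16 ± 0.14. Ubiquitin genes share repeats, so their reads may have been split between them, and 32.5% of the exon bases of *UBQ14* lie opposite another gene. The CDC48 segregase pulls ubiquitylated proteins out of complexes and membranes. Of its 6 listed genes, cofactors included, 2 rose (33.3%, near the 30.4% of all tested genes) and 1 fell. The closest coding copies of *CDC48A* and *CDC48B* (AT5G03340 for both) and of *UFD1* (AT4G38930) are not in the list. Their values are not given. *CDC48B* (AT3G53230) had 570, 624 and 702 CPM in high light, against 11.1, 18.0 and 21.6 CPM in high CO2, a 37.4-fold rise (log2 fold change 5.23 ± 0.27, adjusted p = 1.18e-06). *CDC48A* rose by 2.05 and the cofactor gene *NPL41* fell by 0.35 on the log2 scale, a weak call that was lost with DESeq2, DESeq2 size factors, library totals, without replicate 3 of both groups and with most single libraries left out.

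Receptors and enzymes that hand over or trim ubiquitin had genes called in both directions. Over all tested genes 30.4% rose and 30.4% fell, so such a mix is no trait of these lists. Of 7 shuttle receptor genes 3 rose (42.9%), with *DSK2A* at a log2 fold change of 0.94 and *DDI1* at 0.88, and 2 fell. Of 5 proteasome-linked deubiquitylase genes 2 rose (40.0%), *UBP6* by 0.87 and *UBP7* by 0.45, and *UCH1* fell by 0.73. Upper-quartile scaling gave 1 risen and 2 fallen deubiquitylase genes. The COP9 signalosome, a complex built like the proteasome lid, had 7 of 10 genes risen (70.0%) and 1 fallen. *CSN7* had 94.0, 94.0 and 94.1 CPM in high light, against 24.4, 24.5 and 21.1 CPM in high CO2 (log2 fold change 2.01 ± 0.12, adjusted p = 2.32e-06), *CSN4* rose by 1.23 and *CSN6B* fell by 0.71 on the log2 scale, a call lost without high CO2 replicate 1 or 2. The median log2 fold changes were 1.397 for ubiquitin and E1 genes, 0.58 for the signalosome, 0.30 for shuttle receptors, 0.18 for the CDC48 genes and 0.14 for the deubiquitylases, against -0.06 over all genes.

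**Figure D5:**
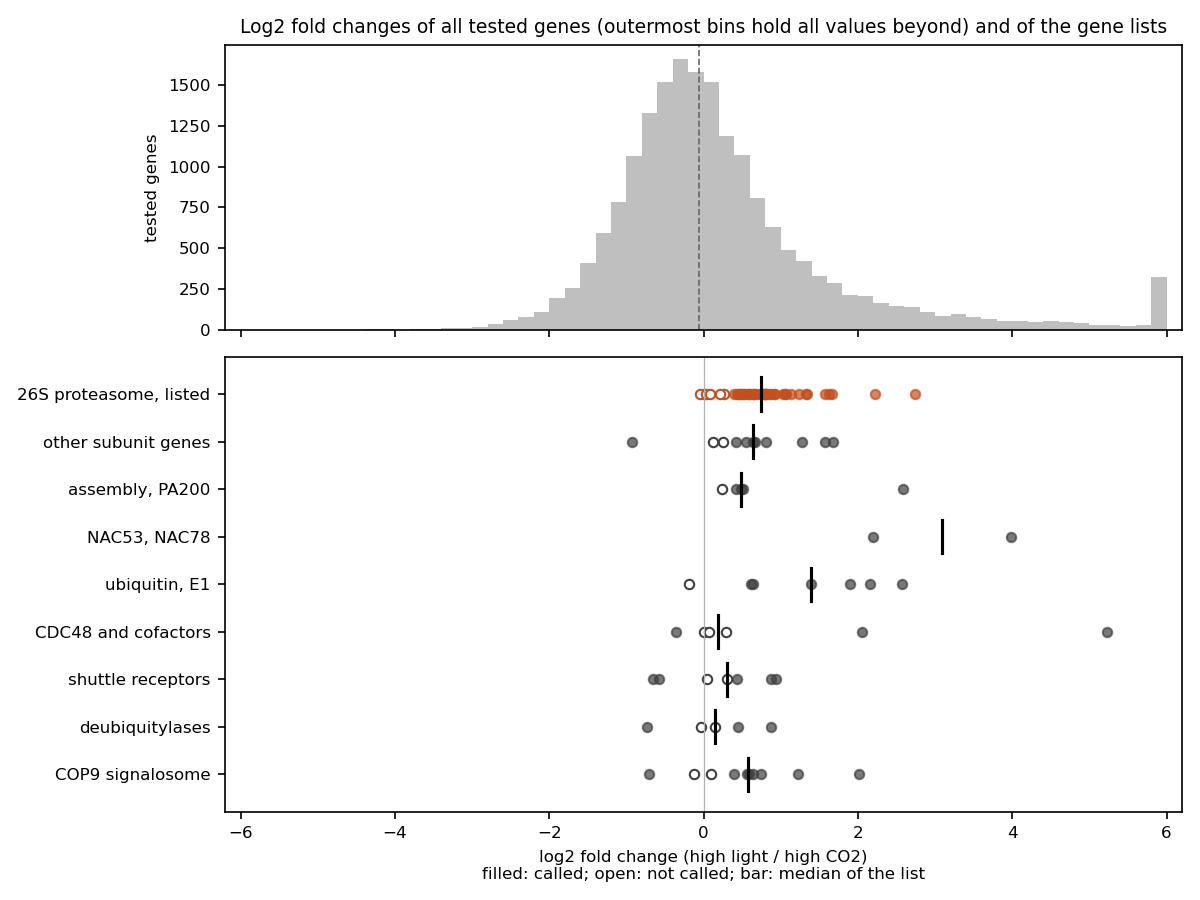
Top, number of tested genes by log2 fold change (high light over high CO2), the dashed line at their median of -0.06. Bottom, each gene of the proteasome and of 8 related lists, filled if called and open if not, with a bar at the list's median, which is 0.75 for the 44 proteasome genes and 3.09 for NAC53 and NAC78.

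Some values depend on how the authors' counting handled overlaps. Of the 44 genes, 6 have more than 10% of their exon bases opposite another gene: *PAF2* with 65.1%, *PBD2* with 18.9%, *RPT1A* with 16.1%, *RPN5A* with 13.2%, *PBF1* with 12.5% and *PBD1* with 11.1%. The libraries were stranded, but the strand setting of the counting is not given in the sources used here, so these values are uncertain if strand was ignored. The scaling of the libraries moved the count of risen genes most. With upper-quartile factors 28 of the 44 rose and 0 fell, with a median log2 fold change of 0.48 beside an all-gene median of -0.33, and over all tested genes 4386 rose and 7883 fell, against 5631 and 5616 with TMM factors.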

How the data were processed

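Leaf RNA of *cat2-2* plants was sequenced in 6 libraries (TruSeq Stranded mRNA). The labels' protocols call the replicates biological repeats of the whole set-up. Per the submitters' processing notes, Trim Galore 0.3.3, TopHat2 2.1.0, featureCounts of Subread 1.4.6 and the TAIR10 build were used, with settings not given in the sources used here. What the authors deposited are unnormalized counts of reads assigned to each gene. Of 33604 rows, 2 leftover header lines were left out. Depth was 18047295 to 24149149 counts per library. Between replicates chi-square divided by its degrees of freedom was 9.65 to 52.4, so none was a copy of another.

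Groups came from the sample labels. In edgeR 4.0.16 (R 4.3.3), genes passing filterByExpr (minimum count 10) were scaled by TMM factors (0.932 to 1.06) and tested with a robust quasi-likelihood fit of high light against high CO2 (4 residual degrees of freedom, biological coefficient of variation 0.177), two-sided, with Benjamini-Hochberg adjustment over 18504 genes and calls at an adjusted p under 0.05. CPM used the scaled library sizes. Pairs of paralogues were compared by exact permutation tests (scipy 1.17.1). DESeq2 1.42.0, limma-voom (limma 3.58.1), other scalings, no filter, a replicate block and left-out libraries were alternatives. The fit was tested on simulated data, where it recovered large changes well but missed most of the smallest ones. Far fewer genes were changed in the simulation than were called in the data, so its recovery rates do not carry over. An uncalled gene may still have changed by a small amount. The simulated sizes were altered after a first run had recovered too few small changes, and the small sizes were later put back.

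Exon lengths, neighbours and upstream sequences came from RefSeq's TAIR10.1 annotation, joined by locus only (32835 loci matched). The counts were made on TAIR10, and no coordinate was taken from them. Coding identity came from BLAST 2.17.0.

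The 44 genes and the related lists were chosen with earlier results of these data known. Of the assembly list, 3 loci were left out after their counts had been seen, since RefSeq does not annotate them as such, and their values are given. AT5G57950 is called by its locus because RefSeq gives it no symbol. Values per library are given for the 3 largest changes in each group of subunits, every uncalled gene, NAC53 and NAC78, and some genes of the related lists. The genes named from each related list are up to 2 called ones in its main direction and 1 in the other, mostly with their log2 fold change alone. For the shuttle receptors, the gene in the other direction is not reported here.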

Additional observations from a re-analysis of the deposited data

How the results depend on the processing

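Of the 44 proteasome genes 38 rose in the main analysis and 0 fell in it or in any alternative run. The count of risen genes was 28 with upper-quartile factors, 35 to 39 with single libraries left out and 39 without replicate 3 of both groups, and 28 genes were called in all alternatives. The upper-quartile factors moved the median of all genes to -0.33, and all-gene calls to 4386 risen and 7883 fallen, against 5631 and 5616. The members' median of 0.75 became 0.48 with upper-quartile factors, 0.81 with those factors and the median of all genes set to 0 (an alternative chosen after seeing the data), 0.82 without replicate 3 of both groups and 0.72 to 0.82 with single libraries left out. It was 0.79 with DESeq2 and with DESeq2 size factors, 0.80 with library totals and 0.80 without high CO2 replicate 2. The spread against which these last 4 were judged unmoved was redefined from the high light libraries to both groups after a first comparison, in which they had counted as moved.

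With upper-quartile factors the calls lost, at log2 fold changes of 0.12 to 0.38, were *PAB2*, *PAD1*, *PBD1*, *PBE1*, *PBF1*, *RPT4B*, *RPT5B*, *RPN1A*, *RPN8A* and *RPN9A*. *RPN1A* was also lost without high light replicate 3, high CO2 replicate 1 or high CO2 replicate 2 (0.38, 0.42 and 0.47), *PAD1* without high light replicate 3 (0.42), and *PAB2* (0.40) and *RPT4B* (0.45) without high CO2 replicate 2. *PAE2* was called without high CO2 replicate 3 (0.36) and without replicate 3 of both groups (0.42).

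Changes of sign touched only uncalled genes and 1 pair. With upper-quartile factors *PAA1* was -0.26, *PAE2* -0.01, *PBB1* -0.05, *RPT6A* -0.24 and *RPN2A* -0.18. *PAC1* was 0.00 with DESeq2 and with library totals, -0.11 to 0.03 with single libraries left out, and 0.01 without replicate 3 of both groups. With single libraries left out *PAA1* was -0.01 to 0.09 and *RPT6A* -0.01 to 0.12. The log2 ratio change of RPT5A to RPT5B, -0.06, ran from -0.18 to 0.03 with single libraries left out, with 0.03 and 0.01 without high light replicate 2 and high CO2 replicate 1.

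Among related lists, the 1 fallen further subunit gene became 0 with DESeq2, without replicate 3 of both groups and with most single libraries left out (0 to 1). The 1 fallen CDC48 gene became 0 with DESeq2, DESeq2 size factors, library totals, without replicate 3 of both groups and with most single libraries left out (0 to 1), and the 1 fallen signalosome gene became 0 without high CO2 replicates 1 or 2 (0 to 1). With upper-quartile factors, 1 assembly gene rose, 1 deubiquitylase rose and 2 fell, and 1 ubiquitin or E1 gene fell. The cause was not tested.

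Same-numbered libraries correlated at 0.22, -0.02 and 0.41 in their deviations from the group means, and differently numbered ones at -0.41 to 0.24. Deviations from means of only 3 libraries cannot decide whether the numbers pair the libraries. With the replicate block, 38 members rose and 0 fell, and 5880 and 6071 of all genes did. With 3 libraries a group, an exact test of a single comparison cannot go below 0.1.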
